A study of Mus musculus with 9 samples.

Results

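This account concerns 34 genes of the cells that wrap brain blood vessels and line the brain's surface: 10 pericyte genes, 7 contractile genes of arterial smooth muscle, and 17 genes of perivascular and meningeal fibroblasts and their matrix. They were taken by symbol from a table of 55335 genes, in which each of the 34 symbols matched 1 gene. Of the 34, 33 had a mean of at least 0.5 FPKM (fragments per kilobase of exon, scaled to the mapped fragments of the library) over all libraries and were among the 15997 genes tested. Cnn1, which codes for the smooth muscle protein calponin 1, did not.

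Pericytes sit in the basement membrane of capillaries, where they hold to the endothelium through platelet-derived growth factor signalling and help to maintain the blood-brain barrier. Smooth muscle cells ring the arteries and arterioles and set their diameter by contracting. Fibroblasts lie in the space around larger vessels and in the meninges and lay down fibrillar collagens and small proteoglycans. In a block of substantia nigra these cells are few beside neurons and glia.

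The tissue was substantia nigra, per the series' design text (the sample labels say only brain), the part of the midbrain whose dopaminergic neurons degenerate in Parkinson disease, and RNA was sequenced in 3 libraries from each of 3 groups, for which the design text speaks of 3 mice per group. Mice of the MPTP plus exercise group were injected intraperitoneally with MPTP, a toxin of dopaminergic neurons, at 20 mg/kg in 2 injections a week for 5 weeks, and had 2 months of voluntary wheel running that began after the first injection (called running libraries here). Mice of the MPTP group had the same injections and no wheel running is described for them. Mice of the vehicle group had saline on the same schedule. All groups were injected, and no group ran without MPTP, so running is seen only on top of the toxin. Strain, age and sex are not given in the labels, nor is it stated that each library is 1 mouse, so the p-values below measure the spread between these libraries, which may be partly technical.

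The libraries summed to 318416 to 319431 FPKM in the vehicle group and to 326614 to 347524 FPKM in the MPTP and running groups. Vehicle libraries thus had the lowest sums, and the fit reported did not rescale them. The libraries had 13413 to 13965 genes at 1 FPKM or more. Steps between low FPKM values placed the libraries at about 22280000 to 27000000 fragments, an estimate only, since 42.1% to 44.5% of low values lay within 2% of a step. Across genes, which are not independent replicates, the Pearson correlation between 2 libraries on the log2(FPKM + 1) scale lay between 0.966 and 0.982 for the 9 pairs within groups and between 0.956 and 0.981 for the 27 pairs of different groups. The dopaminergic neuron markers Th, Slc6a3, Slc18a2 and Ddc together came to 14.28 to 35.23 FPKM in running libraries, 5.626 to 49.48 FPKM in MPTP libraries and 14.16 to 34.66 FPKM in vehicle libraries, a wide spread within each group. Slc6a3 was listed at 0 in running library 2.

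Running libraries were set against MPTP libraries to see what wheel running did on top of the toxin. All 33 tested members had lower means in running than in MPTP libraries on the log2(FPKM + 1) scale, where 54.3% of all genes tested did. No member passed the test (limma, Benjamini-Hochberg adjusted p under 0.05), and neither did any other gene (0.0% of 15997). The median log2 fold change of the members was -0.30, with a range of -0.72 to -0.04, against a median of -0.01 over all genes tested. At an unadjusted p under 0.05, 10 of the 33 were lower and 0 higher, against 2.89% of all genes lower, and 6 were lower without running library 1 (2.13% of all genes) and 6 without running library 2 (3.67% of all genes). The running and MPTP libraries did not overlap for 15 members, each lower in running libraries, against 5.36% of all genes. Members come from the same few cell types and the same libraries, so these counts are not independent of each other.

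**Figure D1:**
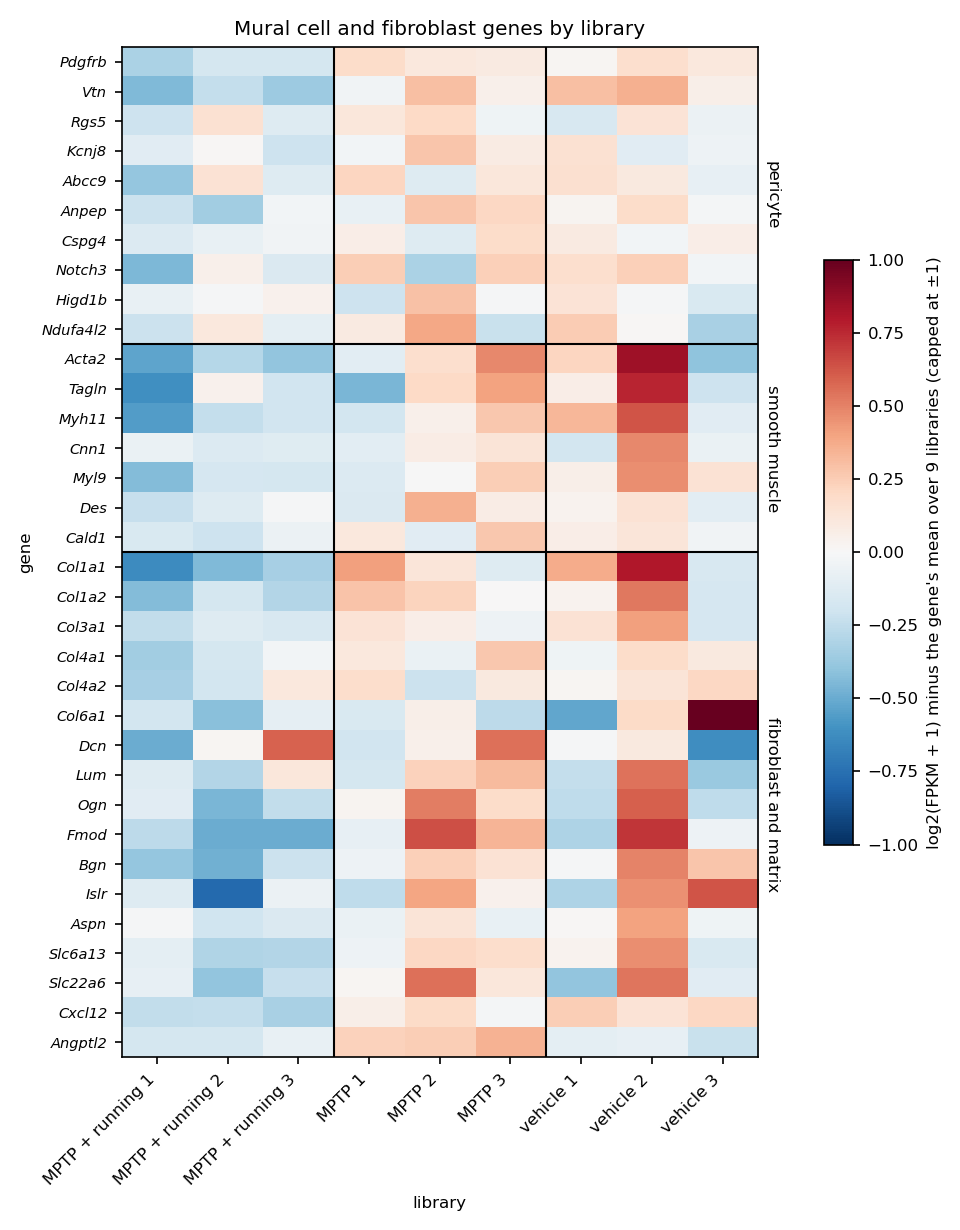
Colour gives the log2(FPKM + 1) of each of the 34 members (rows, in 3 subgroups) in each of the 9 libraries (columns), minus the gene's mean over the 9 libraries, capped at 1 in either direction. Most cells of the 3 running columns are blue (below the mean), vehicle library 2 is red for most smooth muscle and fibroblast genes, and Col6a1 in vehicle library 3 is beyond the cap.

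In tissue pieces of this kind, fewer cells of a type and less RNA per cell cannot be told apart. All 34 members were above 0 in all 9 libraries, which does not show from which cells the RNA came. Rgs5 and Vtn, both pericyte genes, were the highest members per length, with means over all libraries of 28.4 and 23.4 FPKM, and ranked 1340 and 1670 of all genes in the table. Myl9 of smooth muscle followed at 13.1 FPKM, then Col6a1 at 8.14, Col4a2 at 7.92, Acta2 at 7.56, Cxcl12 at 6.17 and Col4a1 at 5.64 FPKM. At the low end Col3a1 (mean 0.527 FPKM) and Des (0.504 FPKM) lay just above the filter, and Cnn1 (0.243 FPKM) below it.

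The pericyte genes had the smallest median difference of the 3 subgroups between running and MPTP libraries. All 10 were lower (median log2 fold change -0.20), 3 of them (Pdgfrb, Vtn and Anpep) at an unadjusted p under 0.05. Of all genes tested, 54.3% were lower and 2.89% at that p. Pdgfrb (ENSMUSG00000024620) codes for the receptor through which endothelial PDGF-B recruits and keeps pericytes, and lies on chromosome 18 at 61045150 to 61085061, plus strand (GRCm38). It was at 3.35, 3.82 and 3.81 FPKM in the running libraries, at 5.16, 4.84 and 4.77 FPKM in the MPTP libraries, and at 4.50, 5.08 and 4.83 FPKM in the vehicle libraries. All 3 running libraries were thus below all 6 others. The log2 fold change of running against MPTP was -0.35 (SE 0.08, limma unadjusted p = 0.0021), which did not pass after adjustment.

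Vtn (chromosome 11, 78499091 to 78502324) codes for vitronectin, an adhesive glycoprotein that brain pericytes secrete and that binds integrins of the endothelium. Its values were 16.7, 19.4 and 17.7 FPKM in running libraries, 22.3, 28.5 and 23.9 FPKM in MPTP libraries, and 28.6, 29.6 and 24.0 FPKM in vehicle libraries. Again every running library was lower than every other one, and the log2 fold changes were -0.45 (SE 0.12) against MPTP and -0.58 (SE 0.12) against vehicle.

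Anpep, the membrane aminopeptidase CD13 of pericytes, was low throughout, at 0.623, 0.486 and 0.849 FPKM in running libraries, 0.789, 1.29 and 1.17 FPKM in MPTP libraries, and 0.928, 1.14 and 0.858 FPKM in vehicle libraries. Running library 3 overlapped MPTP library 1, and the log2 fold change of running against MPTP was -0.33 (SE 0.13, limma unadjusted p = 0.0296). 

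For the most abundant pericyte gene the groups overlapped. Rgs5, a regulator of G-protein signalling that marks pericytes, was at 24.3, 31.5 and 25.7 FPKM in running libraries, 30.6, 32.6 and 27.3 FPKM in MPTP libraries, and 25.2, 31.2 and 27.0 FPKM in vehicle libraries. Running library 2 lay among the highest of the 9, and the log2 fold change of running against MPTP was -0.15 (SE 0.12, limma unadjusted p = 0.25). Kcnj8 and Abcc9 code for the pore and the sulfonylurea receptor subunit of the ATP-sensitive potassium channel of mural cells and are neighbours on chromosome 6. Kcnj8 was at 1.37, 1.59 and 1.22 FPKM in running libraries, 1.52, 2.11 and 1.71 FPKM in MPTP libraries, and 1.85, 1.37 and 1.48 FPKM in vehicle libraries, and the groups overlapped. Its partner Abcc9 averaged 1.22 ± 0.412 FPKM in running, 1.51 ± 0.305 FPKM in MPTP and 1.49 ± 0.211 FPKM in vehicle libraries (SD, n = 3 each). Notch3, the receptor by which mural cells respond to Notch ligands on neighbouring cells, averaged 2.03 ± 0.517, 2.58 ± 0.737 and 2.72 ± 0.344 FPKM in running, MPTP and vehicle libraries. Exons of Abcc9 share 158 bases and those of Notch3 488 bases with genes on the opposite strand, and since it is not given whether counting used strand, both levels are uncertain. The remaining members of the subgroup, Cspg4 (the NG2 proteoglycan, also made by oligodendrocyte precursors), Higd1b and Ndufa4l2, had log2 fold changes between -0.15 and -0.04 for running against MPTP, and their running and MPTP libraries overlapped.

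The smooth muscle genes were lower in running than in MPTP libraries for all 6 tested members (median log2 fold change -0.30), where 54.3% of all genes were. None reached an unadjusted p of 0.05, under which 2.89% of all genes were lower. For Acta2, Myh11 and Myl9 the running and MPTP libraries did not overlap, against 5.36% of all genes lower without overlap. Many contractile genes are driven by serum response factor with its cofactor myocardin, which bind a short element called the CArG box. Promoter sequences from RefSeq (GRCm38.p6) were at hand for 26 of the 34 members. Among the smooth muscle members, Tagln and Myh11 had none and were not searched. Of the smooth muscle members searched, Myl9 and Acta2 held such an element in the 250 bases upstream of the RefSeq start. The stretches with it are shown. Each is given from 5′ to 3′ on the strand of the gene, with the element in capitals. The first Myl9 element is a full match, and the other 3 elements differ from the full pattern at 1 base of the core.
Myl9, chr2:156775283-156775394, plus strand, 181 to 70 bases before the RefSeq start: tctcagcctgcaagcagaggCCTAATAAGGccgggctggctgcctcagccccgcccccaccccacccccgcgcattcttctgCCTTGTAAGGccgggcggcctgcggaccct
Acta2, chr19:34255438-34255467, minus strand, 94 to 65 bases before the RefSeq start: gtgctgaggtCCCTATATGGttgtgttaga
Acta2, chr19:34255388-34255417, minus strand, 44 to 15 bases before the RefSeq start: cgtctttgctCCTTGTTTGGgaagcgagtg
The RefSeq starts used are at 156775464 for Myl9 and 34255373 for Acta2. GENCODE, whose gene bounds are given below, starts both genes further upstream, so that the Acta2 stretches lie within its bounds of that gene and the Myl9 stretch before them. The pattern reads the same on both strands, and the elements shown do not overlap each other. Of 32851 mouse promoter windows of the same length, 1.47% held a full match and 8.59% a match with up to 1 such difference. With up to 1 difference it was found in 2 of 6 windows of smooth muscle members, which covered 5 genes, as Cald1 had 2 windows. It was found in 2 of 16 windows of fibroblast members (Angptl2 and Col1a2) and 0 of 7 of pericyte members. A match is a description of letters, not a site of binding.

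Acta2 (chromosome 19, 34241090 to 34255590, minus strand), smooth muscle alpha-actin, was at 4.66, 5.69 and 5.20 FPKM in running libraries, 6.58, 8.14 and 10.4 FPKM in MPTP libraries, and 8.45, 13.7 and 5.18 FPKM in vehicle libraries. The running values were close together and below all MPTP values, while vehicle library 3 lay among the running libraries and vehicle library 2 above all others. The log2 fold change of running against MPTP was -0.58 (SE 0.28, limma unadjusted p = 0.0702).

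Myl9 (chromosome 2, 156775420 to 156781658, plus strand), the regulatory light chain of smooth muscle myosin, was at 9.32, 11.4 and 11.3 FPKM in running libraries, 11.7, 12.9 and 15.5 FPKM in MPTP libraries, and 13.5, 18.2 and 14.4 FPKM in vehicle libraries. All running libraries were below the 6 others, by a narrow margin against MPTP library 1, with a log2 fold change of -0.30 (SE 0.14) against MPTP and -0.48 (SE 0.14) against vehicle. Myh11, the smooth muscle myosin heavy chain, was at 1.12, 1.65 and 1.73 FPKM in running libraries, 1.74, 2.22 and 2.75 FPKM in MPTP libraries, and 2.93, 3.83 and 1.88 FPKM in vehicle libraries. Here too the running libraries were the lowest of the 9, with the highest running value just under the lowest MPTP value.

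Tagln, the actin-binding protein transgelin, was at 2.52, 4.54 and 3.73 FPKM in running libraries, 2.93, 5.19 and 6.11 FPKM in MPTP libraries, and 4.64, 8.16 and 3.66 FPKM in vehicle libraries, and all groups overlapped. Its exons share 1241 bases with Gm48529 on the other strand, and whether counting used strand is not given in the sources used here, so its level is uncertain. Cald1, caldesmon, which restrains actin and myosin, was at 2.46, 2.33 and 2.70 FPKM in running libraries, 3.14, 2.56 and 3.63 FPKM in MPTP libraries, and 3.04, 3.19 and 2.75 FPKM in vehicle libraries. Running and vehicle libraries did not overlap for Cald1, whereas MPTP library 2 lay within the running values. Des, the intermediate filament desmin, averaged 0.374 ± 0.106, 0.613 ± 0.283 and 0.525 ± 0.132 FPKM in running, MPTP and vehicle libraries (SD, n = 3 each), and shares 220 exonic bases with Gm15179 on the other strand. The untested Cnn1 was at 0.178, 0.120 and 0.129 FPKM in running libraries, 0.145, 0.293 and 0.345 FPKM in MPTP libraries, and 0.0827, 0.719 and 0.174 FPKM in vehicle libraries, highest in vehicle library 2.

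On the log2(FPKM + 1) scale, fibroblast and matrix genes had the largest median difference of the 3 subgroups between running and MPTP libraries. That order depends on the scale: in ratios of mean FPKM, smooth muscle genes differed about as much. All 17 fibroblast and matrix genes were lower (median log2 fold change -0.35), where 54.3% of all genes were. Of the 17, 7 were lower at an unadjusted p under 0.05 (2.89% of all genes). The groups did not overlap for 10 (5.36% of all genes). Among the fibrillar collagens, Col1a1 (chromosome 11, 94936224 to 94953042), which codes for the alpha 1 chain of type I collagen, was at 0.827, 1.08 and 1.24 FPKM in running libraries, 2.74, 2.06 and 1.57 FPKM in MPTP libraries, and 2.64, 3.90 and 1.52 FPKM in vehicle libraries. Every running library was below the 6 others, and the log2 fold change against MPTP was -0.60 (SE 0.23, limma unadjusted p = 0.0319). Col1a2, the partner chain, was at 0.959, 1.34 and 1.16 FPKM in running libraries, 2.22, 2.09 and 1.65 FPKM in MPTP libraries, and 1.71, 2.82 and 1.36 FPKM in vehicle libraries. The running libraries were again the lowest, although the highest of them was only just below vehicle library 3. Col3a1, the chain of type III collagen, averaged 0.336 ± 0.0546, 0.569 ± 0.105 and 0.676 ± 0.333 FPKM in running, MPTP and vehicle libraries, without overlap between running and MPTP.

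Col4a1 and Col4a2 code for the main chains of type IV collagen in vascular basement membranes, and endothelial cells make them as well. They lie head to head on chromosome 8 and share 22 exonic bases. Col4a1 averaged 4.83 ± 0.649 FPKM in running, 6.11 ± 0.836 FPKM in MPTP and 5.98 ± 0.541 FPKM in vehicle libraries (log2 fold change of running against MPTP -0.28, SE 0.12, limma unadjusted p = 0.0436). Col4a2 averaged 7.11 ± 1.26 FPKM in running, 8.04 ± 1.24 FPKM in MPTP and 8.62 ± 0.638 FPKM in vehicle libraries, and both genes overlapped between groups. Col6a1, a chain of the microfibrillar type VI collagen, was at 6.42, 5.31 and 6.91 FPKM in running libraries, 6.56, 7.76 and 6.03 FPKM in MPTP libraries, and 4.86, 8.62 and 20.8 FPKM in vehicle libraries. The single value in vehicle library 3 sets its fold changes against vehicle: that of running was -0.58 with it and -0.06 without it, and that of MPTP was -0.47 with it and 0.05 without it.

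Small leucine-rich proteoglycans bind collagen fibrils and control their assembly. Bgn, biglycan, was at 1.58, 1.42 and 1.92 FPKM in running libraries, 2.26, 2.98 and 2.74 FPKM in MPTP libraries, and 2.35, 3.76 and 3.10 FPKM in vehicle libraries. All running libraries were lowest, with log2 fold changes of -0.47 (SE 0.14, limma unadjusted p = 0.0102) against MPTP and -0.61 (SE 0.14) against vehicle. Fmod, fibromodulin, had the largest log2 fold change of running against MPTP among the tested members on the log2(FPKM + 1) scale, -0.72 (SE 0.27, limma unadjusted p = 0.0256). In mean FPKM the difference was -48.6% for Fmod, -50.7% for Col1a1 and -48.7% for Slc22a6. Fmod was at 2.87, 2.29 and 2.28 FPKM in running libraries, 3.39, 6.24 and 4.86 FPKM in MPTP libraries, and 2.73, 6.62 and 3.46 FPKM in vehicle libraries, so vehicle library 1 lay within the running values. Ogn, osteoglycin, averaged 3.02 ± 0.484, 4.76 ± 1.01 and 4.14 ± 1.89 FPKM in running, MPTP and vehicle libraries and did not overlap between running and MPTP. 

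Decorin was the exception in the subgroup. Dcn was at 2.51, 4.0 and 6.45 FPKM in running libraries, 3.33, 4.11 and 6.24 FPKM in MPTP libraries, and 3.90, 4.29 and 2.22 FPKM in vehicle libraries. It varied more within the running and MPTP groups than between them, was highest in running library 3, and was the only tested member with a positive log2 fold change of running against vehicle, 0.21 (SE 0.31), which was -0.01 without vehicle library 3. Lum, lumican, averaged 1.28 ± 0.328, 1.68 ± 0.459 and 1.49 ± 0.916 FPKM in running, MPTP and vehicle libraries. Aspn, asporin, averaged 0.737 ± 0.119 FPKM in running, 0.884 ± 0.158 FPKM in MPTP and 1.07 ± 0.360 FPKM in vehicle libraries. Islr, a secreted leucine-rich repeat protein of fibroblasts, averaged 3.06 ± 1.03 FPKM in running, 4.26 ± 1.19 FPKM in MPTP and 5.16 ± 1.93 FPKM in vehicle libraries. Running and MPTP libraries overlapped for Dcn, Lum, Aspn and Islr. Exons of Islr share 181 bases with Islr2.

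Slc6a13, a transporter of GABA and taurine found in meningeal fibroblasts, averaged 2.05 ± 0.253 FPKM in running, 2.86 ± 0.359 FPKM in MPTP and 2.93 ± 0.891 FPKM in vehicle libraries (SD, n = 3 each). The organic anion transporter Slc22a6 averaged 0.704 ± 0.186 FPKM in running, 1.37 ± 0.485 FPKM in MPTP and 1.09 ± 0.723 FPKM in vehicle libraries. For both transporters all running libraries lay below all MPTP libraries, and vehicle libraries overlapped with the running ones. 

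The secreted signals Cxcl12 and Angptl2 varied little within groups. Cxcl12 (chromosome 6, 117168535 to 117181367), the chemokine that binds Cxcr4 and that endothelium, mural cells and meningeal fibroblasts make, was at 4.98, 5.00 and 4.65 FPKM in running libraries, 6.37, 7.11 and 5.99 FPKM in MPTP libraries, and 7.41, 6.78 and 7.21 FPKM in vehicle libraries. Running libraries were lowest throughout, with log2 fold changes of -0.35 (SE 0.08, limma unadjusted p = 0.00249) against MPTP and -0.47 (SE 0.08, limma unadjusted p = 0.000348) against vehicle, neither of which passed after adjustment. Angptl2 (chromosome 2, 33216069 to 33247717), a secreted protein of the angiopoietin-like family, was at 0.670, 0.678 and 0.793 FPKM in running libraries, 1.22, 1.24 and 1.41 FPKM in MPTP libraries, and 0.765, 0.783 and 0.623 FPKM in vehicle libraries. The MPTP libraries stood above all 6 others, and the running and vehicle libraries overlapped. Its log2 fold change was -0.42 (SE 0.09) for running against MPTP, with the smallest adjusted p of any member in that comparison (limma with Benjamini-Hochberg adjustment, 0.857).

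**Figure D2:**
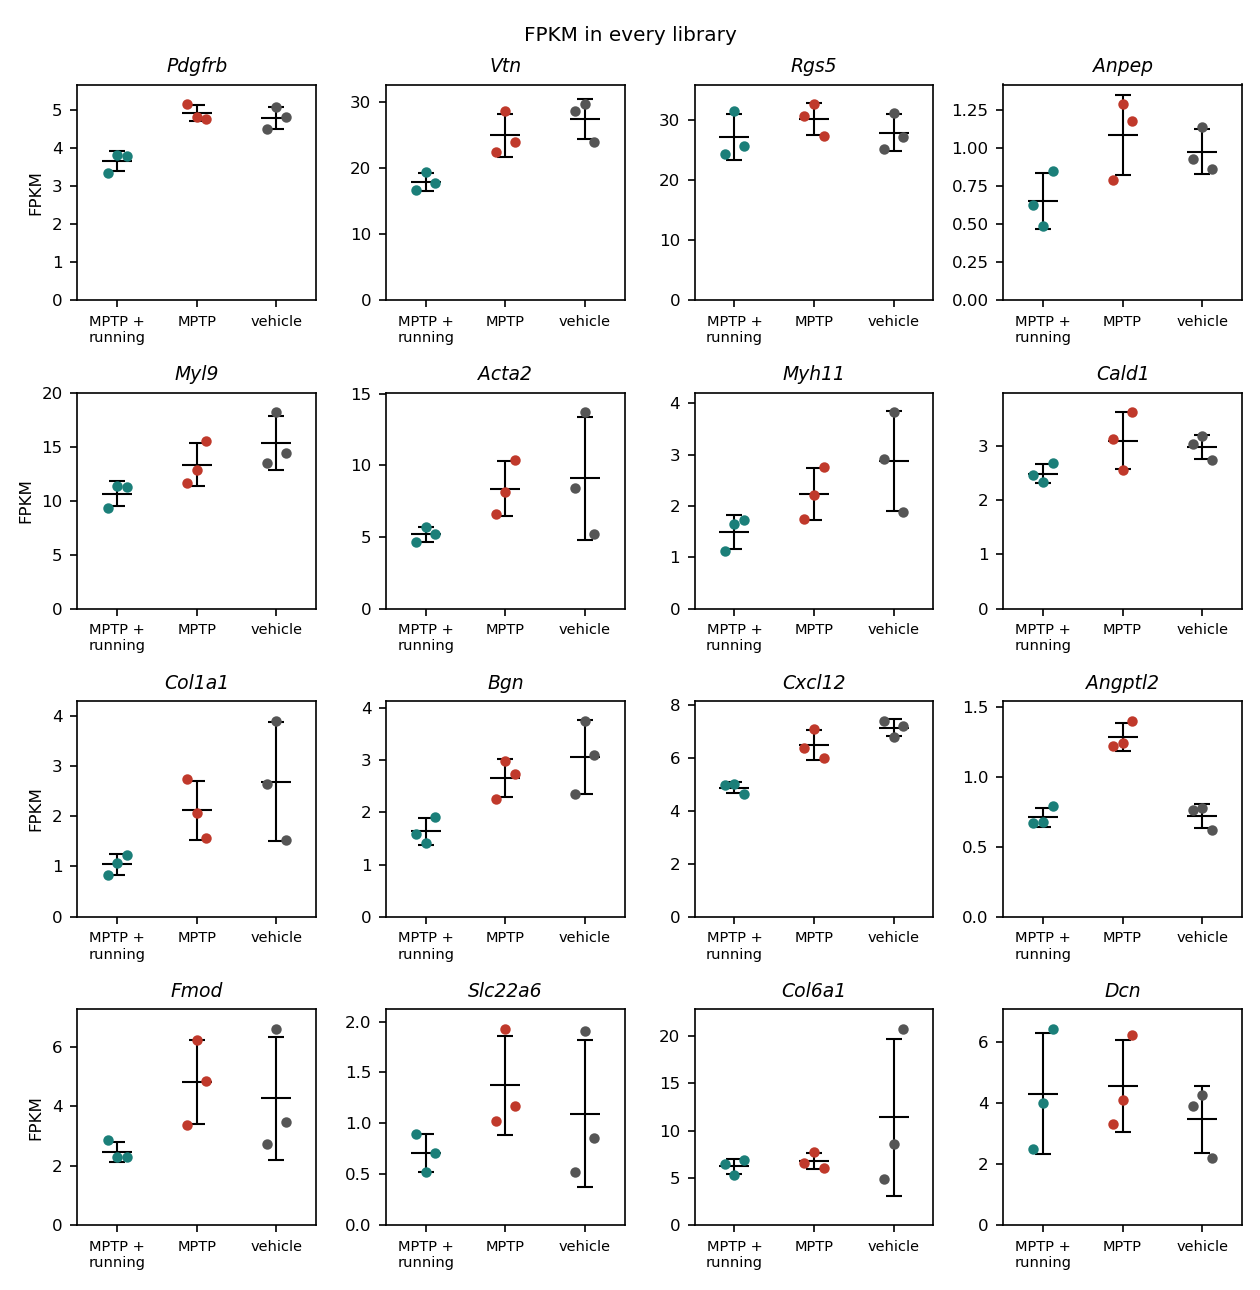
FPKM (vertical axis, from 0) of 16 members in each library of the MPTP plus running, MPTP and vehicle groups; points are libraries, horizontal lines are means and bars are SD over 3 libraries. Pdgfrb, Vtn, Myl9, Myh11, Col1a1, Bgn and Cxcl12 have running libraries below all others, Angptl2 has MPTP libraries above all others, and the groups of Rgs5 and Dcn overlap.

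MPTP libraries were set against vehicle libraries to see what the toxin did on its own. The members were split between the directions: 17 of the 33 were higher and 16 lower in MPTP libraries, against 48.1% of all genes higher. With the libraries rescaled to the same sum, 22 of 33 were lower, at a median of -0.04 beside -0.07 for all genes, and without vehicle library 2, 10 of 31 were lower. No member passed the test, against 0.0125% of all genes (2 of 15997, limma with Benjamini-Hochberg adjustment), and the median log2 fold change was 0.007 for the members and -0.006 for all genes tested. At an unadjusted p under 0.05, 1 member (Angptl2) was higher and 0 lower, against 2.61% of all genes higher, and Angptl2 was also the only member whose groups did not overlap, against 5.2% of all genes higher without overlap. Its log2 fold change of MPTP against vehicle was 0.41 (SE 0.09, limma adjusted p = 0.542). Among pericyte genes the smallest unadjusted p belonged to Vtn, Kcnj8 and Rgs5, with log2 fold changes of -0.13, 0.11 and 0.12 (SE 0.12 each). Of the smooth muscle genes, Myl9, Myh11 and Tagln had log2 fold changes of -0.19 (SE 0.14), -0.24 (SE 0.20) and -0.16 (SE 0.30), and their MPTP and vehicle libraries overlapped. Without vehicle library 2 these were -0.06 for Myl9, -0.07 for Myh11 and 0.12 for Tagln, and without vehicle library 3 they were -0.22, -0.44 and -0.37. Fibroblast genes with the smallest unadjusted p after Angptl2 were Cxcl12, at -0.12 (SE 0.08), and Col6a1, at -0.47 (SE 0.39) with the high value in vehicle library 3.

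Running libraries were also set against vehicle libraries, to see how mice with toxin and running differed from mice given saline. This comparison shares the running libraries with one comparison above and the vehicle libraries with the other. For 32 of the 33 tested members the running mean was lower, against 55.3% of all genes, and the median log2 fold change was -0.30, against -0.02 over all genes. No member passed (0.0% of all genes did), and the smallest adjusted p of a member was 0.753 (limma). At an unadjusted p under 0.05, 8 members were lower, against 3.43% of all genes: Pdgfrb, Vtn, Myh11, Myl9, Col1a1, Col1a2, Bgn and Cxcl12. With the libraries rescaled to the same sum this count was 14, but the share of all genes also went up, to 7.24%, and their median to -0.09. Running libraries lay below all vehicle libraries for 11 members, against 9.2% of all genes, and these were the same 8 with Anpep, Cspg4 and Cald1. The 8 are also the members whose running libraries lay below all 6 others, against 1.63% of all genes tested (260 of 15997). The size of the difference moved with vehicle libraries 2 and 3, in opposite directions. For Acta2 the log2 fold change of running against vehicle was -0.62 with all libraries, -0.31 without vehicle library 2 and -0.93 without vehicle library 3. For Myh11 it was -0.61, -0.44 without vehicle library 2 and -0.81 without vehicle library 3, and for Col1a1 -0.80, -0.57 without vehicle library 2 and -1.05 without vehicle library 3.

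**Figure D3:**
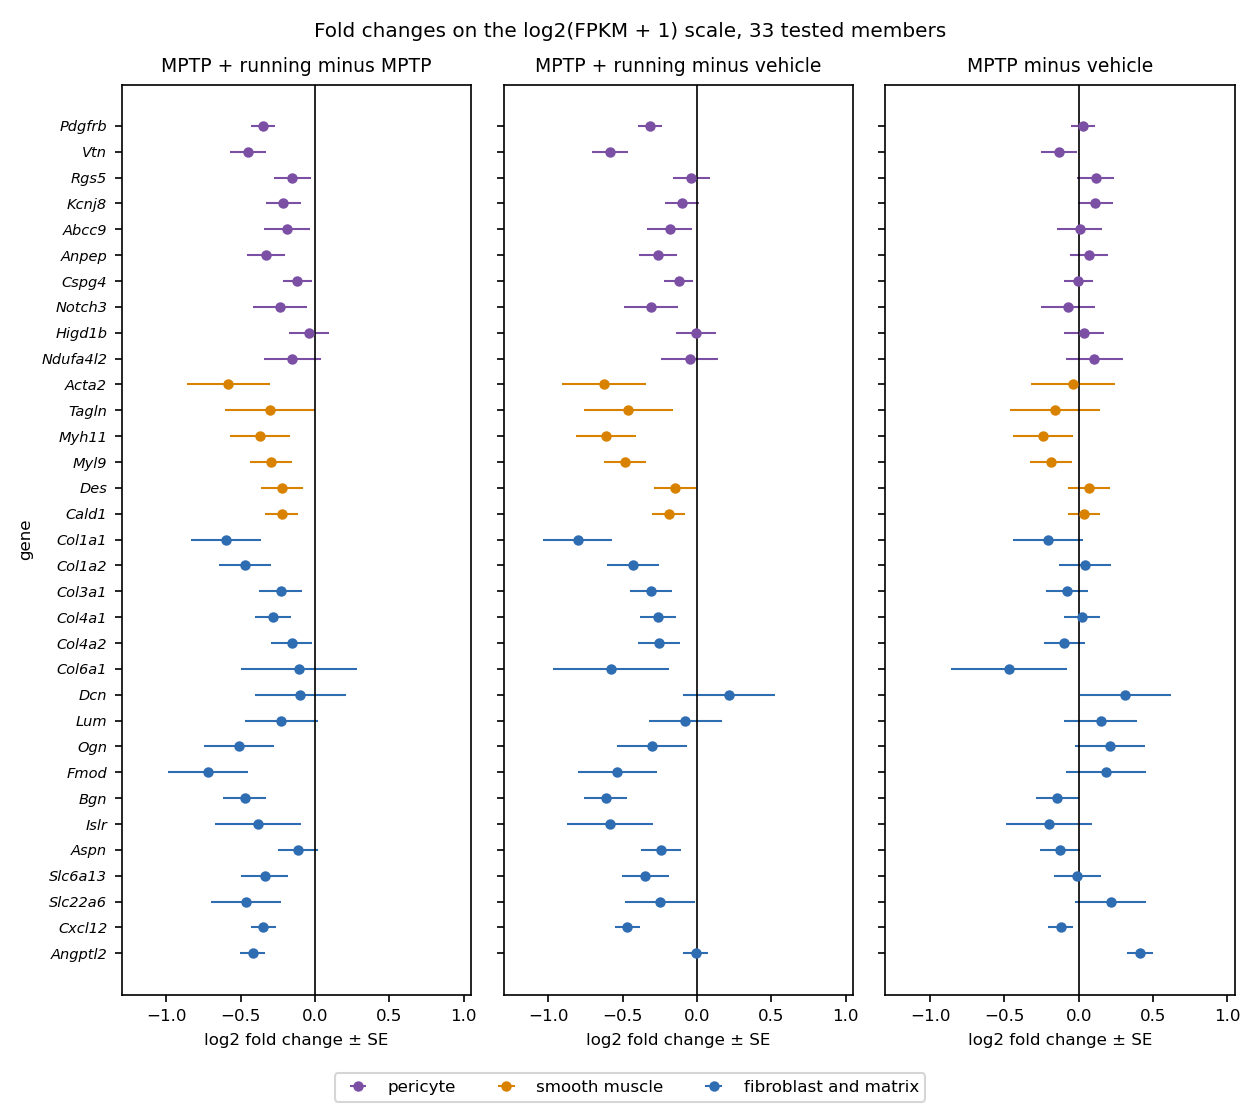
Log2 fold changes on the log2(FPKM + 1) scale (horizontal axis; points are limma estimates and bars are SE) of the 33 tested members for MPTP plus running against MPTP, MPTP plus running against vehicle, and MPTP against vehicle, coloured by subgroup. In the first panel all points lie left of 0, in the second all but Dcn, and in the third 17 lie right and 16 left of it.

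Running library 1 held the lowest value of the 9 for 16 of the 34 members, among them 6 of 10 pericyte and 5 of 7 smooth muscle genes, while of the 17 fibroblast genes 5 were lowest in running library 1 and 6 in running library 2. At the other end vehicle library 2 held the highest value for 15 members, 5 of 7 smooth muscle and 9 of 17 fibroblast genes but 1 of 10 pericyte genes. MPTP library 2 was highest for 5 of the 10 pericyte genes. Such counts were not made for all genes, so they do not set the members apart from genes at large. The mean log2(FPKM + 1) of the pericyte genes was 1.93 to 2.15 in running, 2.24 to 2.31 in MPTP and 2.13 to 2.30 in vehicle libraries. For the smooth muscle genes it was 1.82 to 2.07 in running, 2.08 to 2.53 in MPTP and 2.12 to 2.73 in vehicle libraries, and for the fibroblast genes 1.57 to 1.76 in running, 1.91 to 2.10 in MPTP and 1.81 to 2.275 in vehicle libraries. Running and MPTP libraries did not overlap in any of the 3 means, though by a narrow margin for smooth muscle genes, and pericyte genes of running library 2 overlapped with vehicle library 3.

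Other genes of the same cells and pathways were read from the same fit, in which 54.3% of all genes were lower in running than in MPTP libraries. Of 18 tested further pericyte genes, 14 were lower in running than in MPTP libraries and 4 higher (median log2 fold change -0.11). The lowest unadjusted p among them were those of Cd248, endosialin, at 0.564 ± 0.0986, 1.07 ± 0.0369 and 0.862 ± 0.159 FPKM in running, MPTP and vehicle libraries, and of the folate carrier Slc19a1, at 1.95 ± 0.376, 2.83 ± 0.0363 and 2.09 ± 0.148 FPKM. Of 24 tested genes of PDGF, TGF-beta, angiopoietin and Notch signalling to mural cells, 21 were lower and 3 higher (median -0.15). Tek, the endothelial angiopoietin receptor, averaged 3.22 ± 0.376 FPKM in running, 4.15 ± 0.204 FPKM in MPTP and 4.15 ± 0.270 FPKM in vehicle libraries. The ligands Pdgfa and Pdgfd had log2 fold changes of -0.19 (SE 0.08) and -0.15 (SE 0.13) for running against MPTP and of 0.24 (SE 0.08) and 0.48 (SE 0.13) for MPTP against vehicle. None of the genes named here passed the test.

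The wider contractile programme was split between the directions, as were all genes, 54.3% of which were lower in running than in MPTP libraries. Of 17 tested genes with serum response factor, its cofactors and other contractile proteins, 9 were lower and 8 higher in running than in MPTP libraries (median log2 fold change -0.01). Among them Lmod1, leiomodin 1, had a log2 fold change of -0.19 (SE 0.10), the myosin light chain kinase Mylk -0.23 (SE 0.12), smoothelin Smtn -0.07 (SE 0.11) and Mustn1 0.05 (SE 0.15). Several genes of this list are expressed in other brain cells too. Myocd, which codes for myocardin, was not tested, with means of 0.022 FPKM in running, 0.039 FPKM in MPTP and 0.063 FPKM in vehicle libraries.

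Matrix genes beyond the members were mostly lower in running than in MPTP libraries, where 54.3% of all genes were lower. Of 25 tested further fibroblast genes, 22 were lower and 3 higher (median -0.22), and of 18 tested genes of collagen processing and matrix turnover, 15 were lower and 3 higher (median -0.18). All 15 basement membrane genes were lower (median -0.22), among them the laminin chain Lamc3 (log2 fold change -0.50, SE 0.12), fibronectin Fn1 (-0.47, SE 0.13), nidogen Nid2 (-0.38, SE 0.17) and the laminin chain Lama2 (-0.09, SE 0.10). Igfbp2, a secreted binding protein of insulin-like growth factors placed in the fibroblast list and made by choroid plexus epithelium too, was the only gene of these lists that passed in a comparison. It rose in MPTP libraries, at 26.6, 26.8 and 24.0 FPKM, against 13.1, 14.1 and 12.7 FPKM in vehicle libraries (log2 fold change 0.91, SE 0.08, limma adjusted p = 0.0211), and was at 14.6, 15.2 and 14.4 FPKM in running libraries (limma adjusted p = 0.082 against MPTP). No gene of these lists passed for MPTP against vehicle when only those 2 groups were fitted, nor without MPTP library 2 or 3, vehicle library 3 or any 1 running library. Pcolce, which speeds the cleavage of procollagen, and Col8a1, a short-chain collagen, had their highest means in MPTP libraries as Angptl2 did, without passing: Pcolce averaged 1.20 ± 0.228, 2.12 ± 0.0901 and 1.08 ± 0.299 FPKM, and Col8a1 0.707 ± 0.328, 1.63 ± 0.505 and 0.631 ± 0.0447 FPKM, in running, MPTP and vehicle libraries. Pcolce2 had a log2 fold change of 0.47 (SE 0.18) for MPTP against vehicle, and the matrix protease Mmp2 one of -0.39 (SE 0.10) for running against MPTP.

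Markers of other cell types that share the vessel wall, the meninges or the tissue piece were read too, and their part in the members' differences was not tested. For running against vehicle, 13 of 20 endothelial and 1 of 17 choroid plexus markers were lower (medians -0.14 and 0.45). All 4 tested border macrophage and all 7 blood genes were lower (medians -0.24 and -2.04), as were 32 of 33 members (median -0.30) and 55.3% of all genes. All 20 endothelial markers were lower in running than in MPTP libraries (median log2 fold change -0.24, 9 at an unadjusted p under 0.05), where 54.3% of all genes were lower and 2.89% at that p, and they summed to 159.3 to 190.9 FPKM in running, 186.4 to 218.4 FPKM in MPTP and 168.9 to 180.4 FPKM in vehicle libraries, with none at 0. Pecam1 averaged 2.81 ± 0.443, 4.02 ± 0.358 and 3.87 ± 0.393 FPKM and Cdh5 3.33 ± 0.168, 4.63 ± 0.517 and 4.69 ± 0.696 FPKM in running, MPTP and vehicle libraries, while the transporter Slco1c1 (log2 fold change 0.40, SE 0.11) and the junction protein Ocln (0.43, SE 0.12) had the lowest unadjusted p for MPTP against vehicle. The 4 tested border macrophage markers, such as Cbr2 (-0.85, SE 0.24) and Mrc1 (-0.27, SE 0.13), were all lower in running than in MPTP libraries. The 7 markers of border macrophages summed to 2.736 to 3.553 FPKM in running, 4.584 to 5.906 FPKM in MPTP and 4.016 to 4.516 FPKM in vehicle libraries, with Pf4 the gene of lowest unadjusted p after Cbr2 for MPTP against vehicle (log2 fold change -0.24, SE 0.13).

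Blood genes summed to 11.42 to 45.92 FPKM in running, 35.49 to 59.92 FPKM in MPTP and 54.11 to 442.6 FPKM in vehicle libraries, the top value being that of vehicle library 3, in which Col6a1 also stood apart. All 7 blood genes were lower in running than in MPTP libraries (median -0.96), among them the neutrophil genes S100a8 (-1.03, SE 0.15, listed at 0 in running library 3) and S100a9 (-1.49, SE 0.30). In MPTP against vehicle, Hba-a1 had a log2 fold change of -1.46 (SE 0.75) and Alas2 one of -0.61 (SE 0.32). Choroid plexus epithelium, which borders on meningeal fibroblasts, varied most: its 17 markers summed to 95.6 to 1067 FPKM in running, 1104 to 2321 FPKM in MPTP and 107.6 to 424 FPKM in vehicle libraries. All 17 were lower in running than in MPTP libraries (median -1.07) and all 17 higher in MPTP than in vehicle libraries (median 1.48), as Enpp2 shows with 100.3 ± 26.3, 180 ± 40.3 and 66.4 ± 7.57 FPKM in running, MPTP and vehicle libraries, and Slc4a5 with 0.797 ± 0.539, 2.84 ± 1.47 and 0.376 ± 0.374 FPKM. Steap1 of this list was listed at 0 in vehicle library 1. Of all genes, 54.3% were lower in running than in MPTP libraries and 48.1% higher in MPTP than in vehicle libraries. For the members the median was -0.30 for running against MPTP and 0.007 for MPTP against vehicle. Whether these differences and those of choroid plexus are linked was not tested.

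Of the 8 oligodendrocyte precursor markers, which bear on Cspg4, 5 were lower and 3 higher in running than in MPTP libraries (median -0.02), with Gpr17 at 0.17 (SE 0.10) and Neu4 at 0.18 (SE 0.10). Of all genes, 54.3% were lower in that comparison. Astrocyte markers were lower for 2 and higher for 4 of 6 (median 0.13; Gja1 0.72, SE 0.32; Gfap 0.25, SE 0.21). Microglial markers were lower for 4 and higher for 1 of 5 (median -0.09; P2ry12 0.66, SE 0.25; Cx3cr1 -0.48, SE 0.35). The dopaminergic neuron markers were split, 2 lower and 2 higher (median 0.09; Th -0.16, SE 0.66; Slc6a3 -0.72, SE 1.18; Slc18a2 0.40, SE 0.54; Ddc 0.33, SE 0.44).

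**Figure D4:**
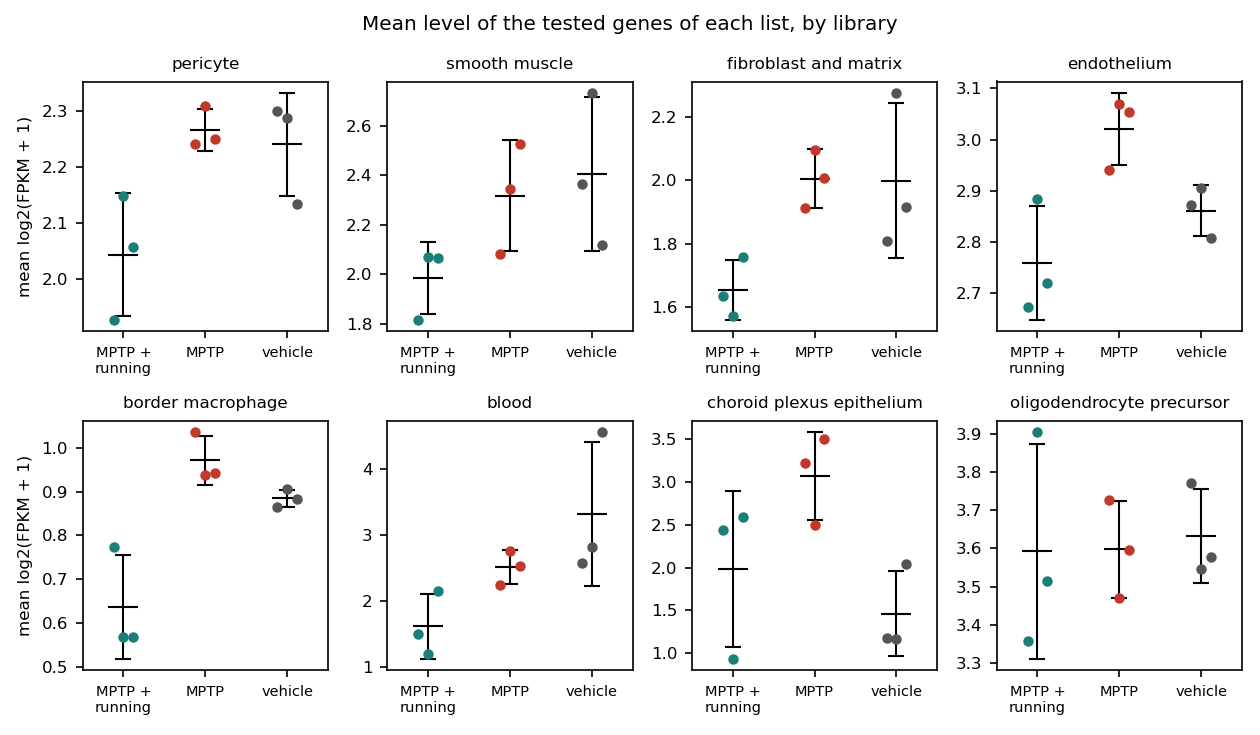
Mean log2(FPKM + 1) of the tested genes of each list (vertical axis, scale set per panel) in each library of the MPTP plus running, MPTP and vehicle groups; points are libraries, horizontal lines are means and bars are SD over 3 libraries. Running libraries lie below MPTP libraries for pericyte, smooth muscle, fibroblast, endothelial, macrophage and blood genes, choroid plexus is high in MPTP libraries, and oligodendrocyte precursor genes overlap.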

How the data were processed

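The deposited values are FPKM per gene in 9 libraries, taken as the authors made them. Per the labels' protocols, mRNA was enriched on magnetic beads from total RNA and read on an Illumina NovaSeq6000, and the submitters' processing notes list bcl2fastq, HTSeq, DESeq2 and the build GRCm38. Not given in the sources used here are the aligner, the step that made FPKM and whether counting used strand. Symbols, coordinates and exon overlaps are those of GENCODE M21. The 34 members, the gene lists and the tests were chosen with earlier results of these data known.

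One limma fit took in all 9 libraries on the log2(FPKM + 1) scale, with trended variances, for 15997 genes whose mean reached 0.5 FPKM (6 residual and 2.68 prior degrees of freedom, two-sided p, Benjamini-Hochberg adjustment over all of these genes, threshold 0.05). This scale understates the change of low genes. No test was run on lists, and the fit was checked on simulated data with independent noise for each gene. Changes were planted only in genes with a mean log2(FPKM + 1) above 1, so low members such as Angptl2 and Anpep are not covered. Planted changes of 1 log2 unit were found in 76.7% to 77.05% of cases and of 2 in 93.6% to 95%. Of the calls, 5.09% to 5.61% were false. Changes as small as those of the members were not planted, so the check does not tell how often such changes are found. Values in every library are given for the 3 members of each subgroup with the smallest unadjusted p for MPTP against vehicle and for running against MPTP, for the highest member of each subgroup, and for 5 further members (Col1a1, Col1a2, Fmod, Dcn and Cnn1) chosen after their values were seen. From other lists, genes past the threshold, or else the 2 with the smallest p in each of those comparisons, were named, and 1 such gene is not reported here. All 238 list symbols matched 1 gene, 3 of them through an older symbol.

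Deviations from group means of same-numbered MPTP and vehicle libraries had correlations of 0.25, 0.33 and 0.11. Pairs of different number ranged from -0.35 to 0.17, the 0.17 being MPTP library 3 with vehicle library 1. The comparison was also fitted with the replicate number as block. A pairing by number is not in the labels, and these values do not establish it. For running against MPTP the same-numbered correlations were -0.34, -0.13 and 0.25, below the 0.40 of running library 2 with MPTP library 1. For running against vehicle they were -0.26, 0.007 and 0.24. Fragments per library were estimated from 19516 genes with a single transcript. Python 3.11.15 (pandas 2.3.3, numpy 2.4.6, matplotlib 3.10.9) and R 4.3.3 (limma 3.58.1) were used.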

Additional observations from a re-analysis of the deposited data

How the results depend on the processing

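Each comparison was refitted in 17 other ways: without the filter, with a minimum mean of 5 FPKM, with a pseudocount of 0.1, rescaled to 1 sum, with quantile normalization, with only the 2 groups compared, with array weights, with the replicate number as a block, and without each of the 9 libraries. Counts of lower members and calls in other lists were added after seeing the data. No member passed in any refit. The smallest adjusted p of a member was 0.446 for running against MPTP, 0.389 for running against vehicle and 0.306 for MPTP against vehicle (limma). With the replicate block 0 members passed in each comparison, and 11 were lower at an unadjusted p under 0.05 in running against MPTP (3.15% of all genes). The block changed no other call of a member. It called 2 genes of the other lists in MPTP against vehicle, where the fit without it called 1 and the fit of only the 2 groups compared 0.

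At a minimum mean of 5 FPKM 8 members were left. In running against MPTP libraries 8 were lower, 3 at an unadjusted p under 0.05 (1.53% of all genes at that minimum). In running against vehicle libraries 8 were lower, 3 at an unadjusted p under 0.05 (2.02% of all genes). In MPTP against vehicle libraries 6 were lower. The median log2 fold change of running against vehicle was -0.47 at that minimum, by the smaller set of genes, and -0.43 with a pseudocount of 0.1. In that comparison 14 members were lower at an unadjusted p under 0.05 when rescaled (7.24% of all genes) and 14 with array weights (5.46% of all genes), against 3.43% of all genes in the fit reported, and in MPTP against vehicle 1 when rescaled (3.55% of all genes, against 1.48%). The cause was not tested. In running against MPTP, 1 gene of the other lists was called without the filter, at a minimum of 5 FPKM, when rescaled and with array weights.

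Leaving out 1 library gave 31 to 33 members lower in running than in MPTP libraries (31 of 32 without MPTP library 2 or 3, 31 of 31 without vehicle library 2). At an unadjusted p under 0.05, 6 to 14 were lower, against 1.77% to 4.14% of all genes. The count was 6 without running library 1, 6 without running library 2 and 14 of 31 without vehicle library 2. Other lists had 0 to 1 calls, the 1 without MPTP library 1. In MPTP against vehicle 10 to 20 members were lower, 10 of 31 without vehicle library 2 and 20 of 33 without vehicle library 3. In that comparison 0 to 2 were lower at an unadjusted p under 0.05, against 0.855% to 3.22% of all genes, and other lists had 0 to 1 calls. Of single-member refits, 6 of 530 changed sign in running against MPTP, 18 of 531 in running against vehicle and 48 of 532 in MPTP against vehicle. With 3 libraries a group and no counts, the depth behind low FPKM values is known only as an estimate, and the lowest members (Anpep, Aspn, Col3a1, Des and Cnn1) are the least precise.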
